A study of Mus musculus with 9 samples.

Results

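The nuclear-encoded subunits of the mitochondrial respiratory chain and ATP synthase were described in colonic CD4+ T cells from mice with T cell transfer colitis. Members were chosen by gene symbol alone, as every symbol that begins with NDUFA, NDUFB, NDUFC, NDUFS or NDUFV and a number, the 4 SDH subunits, symbols that begin with UQCR, CYC1, symbols that begin with COX4 to COX8, and symbols that begin with ATP5. That gave 85 of the 23415 genes in the table: 37 for complex I, 4 for complex II, 9 for complex III, 18 for complex IV and 17 for complex V. All 85 matched a mouse RefSeq gene, and mouse symbols are used here. A few symbols needed a synonym, so that ATP5F1 is Atp5pb, ATP5S is Dmac2l and ATP5SL is Dmac2, and the last pair are not subunits of the enzyme. Of the 85, 79 reached 1 TPM in at least 4 libraries and were tested, and the other 6 (Cox4i2, Cox6a2, Cox7b2, Cox8b, Cox8c and Ndufa4l2) were not.

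RNA was measured in 9 libraries, 4 labelled CD160 Knockout and 5 labelled as controls. Donor cells were naive CD4+CD25-CD45RBhigh T cells from CD160 knockout mice or from wild-type littermates, and both kinds were injected into Rag1-/- recipients, which have no T or B cells of their own. For each library 5000 colonic CD4+ T cells were sorted at the peak of disease, in both groups alike, and whole-transcript cDNA was made from their polyadenylated RNA by a SMART-Seq2 protocol. Donor and recipient ages, the design of the Cd160 allele and whether a library is 1 recipient are not given in the sources used here, so a p-value here reflects only how far these libraries spread, which may be technical. Values are TPM, a transcript level corrected for transcript length and scaled to the same total in each library.

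The respiratory chain oxidises NADH at complex I and succinate at complex II, passes the electrons through ubiquinone, complex III and cytochrome c to complex IV, and there reduces oxygen to water. Complexes I, III and IV pump protons across the inner mitochondrial membrane, and complex V, the ATP synthase, uses the return flow to make ATP. Most subunits are encoded in the nucleus; a small set of membrane-embedded core subunits is encoded by mitochondrial DNA and is not analysed here. Activated T cells rely on both glycolysis and oxidative phosphorylation, and the chain also serves proliferation by keeping NAD+ and aspartate synthesis going.

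Promoters of subunit genes are known for sites of nuclear respiratory factor 1 (NRF1), of ETS factors such as GABP, and of YY1, and the 3 genes whose levels stayed apart between the groups on the deposited scale and after median-of-ratios rescaling are shown with the stretch from 200 to 44 bases before the RefSeq transcription start. Sequences are from the RefSeq promoter table for GRCm38.p6, 5′ to 3′ along the gene, and capitals mark the letters matched by CCAAT (on either strand, so also ATTGG) or by the NRF1 motif. The stretches lie at chr1:58586197-58586353 on the plus strand for Ndufb3, at chrX:37191282-37191438 on the minus strand for Ndufa1 and at chr11:115419963-115420119 on the minus strand for Atp5h.
Ndufb3: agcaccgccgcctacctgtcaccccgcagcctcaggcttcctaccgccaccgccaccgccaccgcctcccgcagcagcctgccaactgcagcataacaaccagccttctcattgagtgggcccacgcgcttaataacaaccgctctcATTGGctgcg
Ndufa1: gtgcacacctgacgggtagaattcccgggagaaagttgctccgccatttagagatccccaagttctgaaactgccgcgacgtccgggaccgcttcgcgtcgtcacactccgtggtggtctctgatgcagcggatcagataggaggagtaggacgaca
Atp5h: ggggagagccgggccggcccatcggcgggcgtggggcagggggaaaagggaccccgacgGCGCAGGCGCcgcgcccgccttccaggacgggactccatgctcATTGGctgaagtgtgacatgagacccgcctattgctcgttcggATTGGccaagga

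In all, 6 motifs were searched on both strands in the 300-base windows of that table (250 bases before to 50 after the start), in which 69 of the 85 members and 27025 genes in all had an entry. The NRF1 motif (GCGCA, any base, then GCGC) was in the window of 17 members (24.6%) against 5.19% of all genes, the ETS motif CCGGAAG in 16 (23.2%) against 9.93%, and the YY1 motif AAGATGGC in 11 (15.9%) against 3.19%. At least 1 of these 3 was in 38 members (55.1%), against 16.4% of all genes. CCAAT was in 31 members (44.9%, all genes 41.1%), the SP1 motif GGGCGG in 28 (40.6%, all genes 38.2%) and TATAAA in 7 (10.1%, all genes 15.7%). There were 12 genes with a window among those whose libraries did not overlap between the groups. Of these, 2 (16.7%) held the NRF1 motif, 4 (33.3%) the ETS motif and 1 (8.33%) the YY1 motif. CCAAT was in 7 of the 12 (58.3%), the SP1 motif in 7 (58.3%) and TATAAA in 0. The Atp5h window held NRF1, ETS and CCAAT matches, the ETS match being nearer the start than the printed stretch. Of these motifs the Ndufb3 window held CCAAT alone and the Ndufa1 window held none. The other motifs are not given for single windows. A match is a run of letters and not a measured binding site.

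Cd160 itself, the gene named in the knockout label, was measured at 14.5, 5.44, 7.51 and 18.8 TPM in the knockout libraries and at 31.8 to 212 TPM in the 5 control libraries, so the groups did not overlap (limma adjusted p = 0.572 over 9 libraries and 0.113 over 8). All 4 knockout libraries thus held Cd160 signal, and whether it falls in an altered part of the gene cannot be read from a level per gene. Control replicate 1 stood apart: 7308 genes reached 1 TPM in it against 11088 to 11711 in the other 8 libraries, and its median rank correlation with the others was 0.737 against 0.936 to 0.955. Every comparison is therefore given over all 9 libraries and over the 8 without it. All 7 CD4 T cell markers (such as Cd3e, Cd4 and Lck) were detected in every library, with a summed level of 3445 to 4421 TPM in knockout, 4243 to 4889.7 TPM in control replicates 2 to 5 and 1700.4 TPM in control replicate 1. Over 8 libraries 1 of the 7 was above its control mean in knockout, and 3 were lower at an unadjusted limma p under 0.05. Macrophage and monocyte markers were also present: all 8 were above their control mean in knockout over 8 libraries, 7 of them at an unadjusted limma p under 0.05, with a summed level of 8409.6 to 15096 TPM in knockout and 9369, 2513, 5334 and 2330.4 TPM in control replicates 2 to 5. Their sum was above that of the CD4 T cell markers in every knockout library and in control replicates 2 and 4. It was below that sum in control replicates 1, 3 and 5. Markers of stroma, epithelium, dendritic cells, neutrophils and B cells each summed to at most 346 TPM in any of these 8 libraries, and Ms4a1 was listed at 0 in all. Among them 2 epithelial genes, 1 dendritic cell gene and 1 neutrophil gene were higher in knockout at an unadjusted limma p under 0.05. All 5 stroma genes were above their control mean in knockout over 8 libraries, 0 of them at that limit. The 2 CD8 T cell markers summed to 6.7 to 33.8 TPM in knockout and to 24.9, 85.6, 5.57 and 87.4 TPM in control replicates 2 to 5. In bulk RNA, fewer cells of a type and less RNA per cell cannot be told apart.

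Across the whole set the 2 groups were close over the 8 libraries without control replicate 1, with knockout slightly below control. The 85 genes together took 3.39, 3.28, 3.2 and 3.43% of all TPM in the 4 knockout libraries (in the order of the replicate numbers, as in all lists of values here) and 3.64, 3.47, 3.57 and 3.54% in control replicates 2 to 5. The knockout libraries averaged 3.33% ± 0.106 (SD, n = 4) and these controls 3.55% ± 0.0693 (SD, n = 4). All 4 knockout shares were below all 4 control shares, by a gap smaller than the range within either group, and no p is given for a sum over chosen genes. In control replicate 1 the share was 6.41%, above that of every other library. Other measurements differed between the groups in the same libraries. Transcripts under 1000 bases took 40.7 to 43.2% of TPM in knockout, 44.5 to 45.6% in control replicates 2 to 5 and 74% in control replicate 1, and 59 of the 85 members have such transcripts. Summed macrophage marker TPM was higher and summed CD4 T cell marker TPM lower in most knockout libraries, with overlapping ranges as given above. The part of transcript length and of cell content in the share was not tested.

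**Figure D1:**
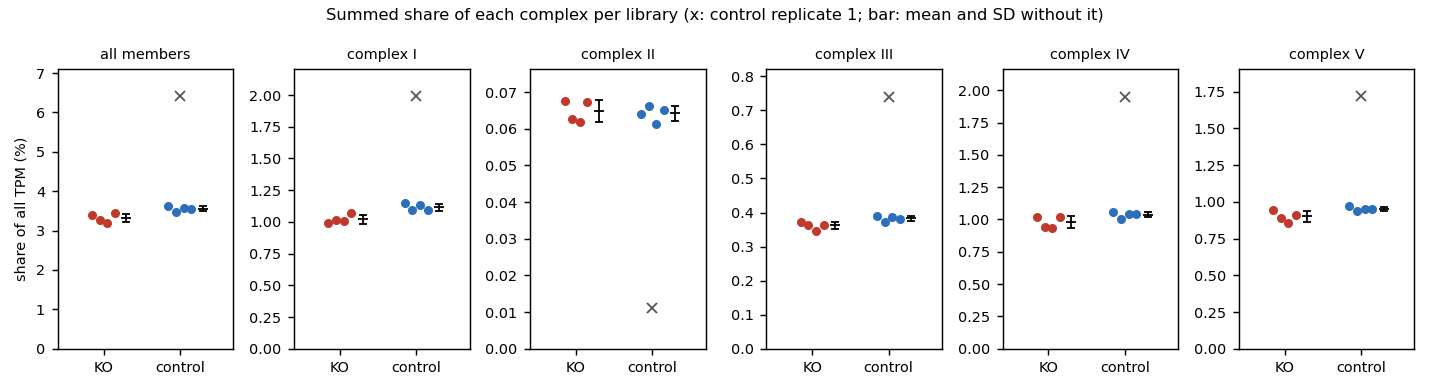
Percent of all TPM taken by all 85 members and by each complex, per library (red, 4 CD160 knockout; blue, control replicates 2 to 5; cross, control replicate 1; bar, mean and SD without it; each panel has its own axis from 0). The knockout points sit just below the blue control points for all members, between 3.2% and 3.43% against 3.47% to 3.64%, and the cross lies far above them in every panel but that of complex II, where it lies at 0.011%.

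Gene by gene, no member passed the limma test at a Benjamini-Hochberg adjusted p of 0.05, over 9 or over 8 libraries. Few genes of any kind did: 0.0174% of the 11495 tested over 9 libraries and 0.0262% of the 11457 tested over 8. At an unadjusted p under 0.05, none of the 79 tested members was lower and none higher in knockout over 9 libraries (background 0.618% lower and 5.78% higher), and over 8 libraries 15 were lower and 1 was higher (background 4.41% and 8.44%). The 15 became 9 without control replicate 2, and 2 with the replicate number as a block. Under median-of-ratios scaling they became 4, which is 5.06% of the tested members beside 5.05% of all tested genes. For the 9 and the 2 the share of all tested genes is not given here, so those counts are not read as a result about the members. The median difference of the members, knockout minus control, was -0.073 on the log2(TPM + 1) scale over 8 libraries, beside -0.014 for all genes tested, and 61 of the 79 (77.2%) were negative, as were 52.5% of all genes tested and 81.3% of cytosolic ribosomal protein genes. Over 9 libraries it was -0.19, beside 0.46 for all genes. Median-of-ratios scaling moved the 9-library median of all genes to 0.0046 and that of the members to -0.82. Over 8 libraries it moved both by little (to -0.0029 and -0.06). By complex the 8-library medians were -0.080 for complex I, 0.0056 for complex II, -0.029 for complex III, -0.098 for complex IV and -0.056 for complex V. The median within-group SD of the members over the 8 libraries was 0.0912 log2 units, close to the 0.0932 of cytosolic ribosomal protein genes, with 0.245 for all genes tested.

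In 14 members the groups did not overlap, with all 4 knockout libraries below every control library. They were the same 14 with and without control replicate 1: Ndufa1, Ndufa2, Ndufa5, Ndufa13, Ndufb3, Ndufv3, Uqcrh, Cox6c, Cox7a2, Cox7b, Cox7c, Atp5e, Atp5h and Atp5j. That is 17.7% of the tested members, where 3.01% of all tested genes were so placed over 8 libraries and 1.05% over 9. No member had all knockout libraries above the controls (background 4.01% and 3.88%). Their differences were small, from -8.04% to -24.7% over 8 libraries. When the libraries were rescaled by median-of-ratios size factors, 3 of the 14 stayed apart over 8 libraries (Ndufb3, Ndufa1 and Atp5h). These are 3.8% of the tested members, close to the 3.56% of all tested genes under that scaling, so the higher share among the members was present on the deposited TPM scale and not after rescaling. Complex I gave 6 of the 14, complex II none, complex III 1, complex IV 4 and complex V 3. None of the 6 complex I core subunits described here and neither of the large core proteins of complex III was among them.

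**Figure D2:**
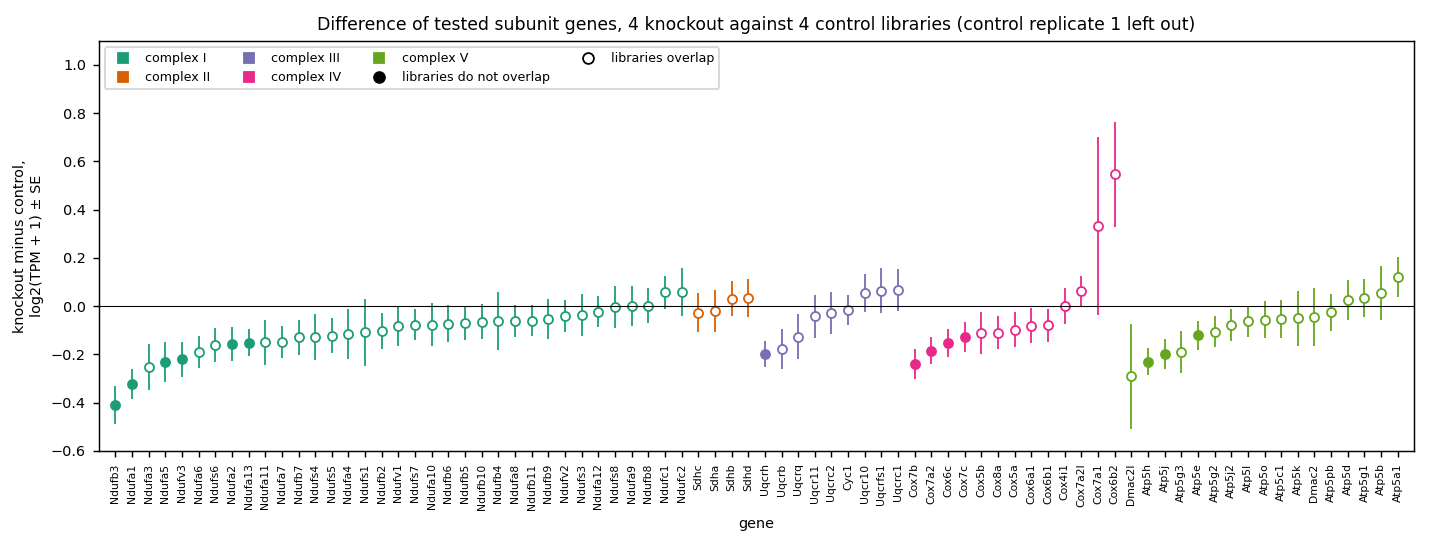
Difference in log2(TPM + 1), knockout minus control, with its standard error, for the tested members over 8 libraries (1 gene not shown; control replicate 1 left out), ordered by complex and then by size; filled points mark genes whose 4 knockout libraries all lie below the 4 controls. Filled points lie below 0 in complexes I, III, IV and V. Some open points lie among or below them, such as Ndufa3 (-0.25) in complex I and Dmac2l (-0.29) in complex V. Complex II sits on 0, and the positive points with wide bars are the low-level genes Cox7a1 and Cox6b2.

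Complex I takes electrons from NADH and is the largest of the complexes. Ndufb3 was measured at 146, 171, 182 and 170.2 TPM in the knockout libraries. Control replicates 2 to 5 had 227, 217, 224 and 220.0 TPM, and control replicate 1 had 230.0 TPM. Ndufb3 (chr1:58586384-58595964 in GRCm38) encodes a small accessory subunit of the membrane arm. All 4 knockout libraries were below all 5 controls, and control replicate 1 was close to the other controls. The group means were 167 ± 15.2 TPM for knockout and 222 ± 4.34 TPM for control replicates 2 to 5 (SD, n = 4 each), a difference of -0.41 ± 0.0796 (SE) on the log2(TPM + 1) scale, or -24.7%, with a limma adjusted p of 0.117 over 8 libraries and 0.745 over 9. It was the largest negative difference among the tested members over 8 libraries. Ndufa1 stood at 433, 477, 459 and 439.7 TPM in knockout. In control replicates 2 to 5 it stood at 603, 557, 565 and 541 TPM, and in control replicate 1 at 1260 TPM. Ndufa1 (chrX:37187588-37191163) encodes another membrane-arm accessory subunit, whose X-linked human counterpart is a known complex I disease gene. Its knockout values were below all controls, and control replicate 1 was the highest of all libraries; the 8-library difference was -0.32 ± 0.0632 (SE) on the log2(TPM + 1) scale (limma adjusted p = 0.117), and over 9 libraries -0.55 ± 0.303 (limma adjusted p = 0.745).

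The 4 knockout libraries had 938, 1037, 1162 and 1112 TPM of Ndufa3. The values in control replicates 2 to 5 were 1356, 1165, 1401 and 1148 TPM, with 4302 TPM in control replicate 1. Ndufa3 (chr7:3617373-3620327), an accessory subunit, was the most abundant complex I transcript, and its groups overlapped at the edge, since knockout replicate 3 exceeded control replicate 5. The 8-library difference was -0.25 ± 0.0954 (SE) on the log2(TPM + 1) scale (limma adjusted p = 0.306). Of the other accessory subunits, Ndufv3 differed by -0.22, Ndufa5 by -0.23, Ndufa2 by -0.16 and Ndufa13 by -0.15, all without overlap of the libraries and with limma adjusted p from 0.256 to 0.389; these 4 were chosen for mention after their values were seen. Ndufa13 was at 285, 286, 284 and 286 TPM in knockout, almost the same in each library, against 322, 309, 329 and 308 TPM in control replicates 2 to 5. The groups by role within a complex were made after the values were seen. Over the 28 accessory subunits the median 8-library difference was -0.11, with 24 of 28 negative (85.7%, beside 52.5% of all tested genes). Of these 28 subunits, 6 were without overlap (21.4%, beside 3.01% of all tested genes). Their levels as 8-library means ran from 49.7 (Ndufa11) to 1165 TPM (Ndufa3), and the highest of their differences was 0.058. Many genes of small subunits have processed pseudogenes of nearly the same sequence, and how reads shared with these were assigned is not given in the sources used here, so such levels carry that uncertainty.

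The 6 nuclear core subunits of complex I described here, among them Ndufs1, Ndufv1 and Ndufv2, belong to the part of the enzyme that holds the NADH site, flavin and iron-sulphur clusters, and their groups did not separate. Their levels ran from 37.6 to 286 TPM in knockout and from 38.5 to 301 TPM in control replicates 2 to 5, every one of them overlapped, and their 8-library differences ran from -0.11 to -0.0046 with a median of -0.059. All 6 differences were thus negative, as were 24 of the 28 accessory ones. Ndufs1 was measured at 46.7, 50.2, 37.6 and 40.1 TPM in the knockout libraries. Control replicates 2 to 5 had 45.0, 55.4, 38.5 and 50.1 TPM, and control replicate 1 had 1.47 TPM. Ndufs1, the largest subunit, was the least abundant tested complex I gene, and its libraries of both groups interleaved apart from control replicate 1 (8-library difference -0.11 ± 0.139 (SE) on the log2(TPM + 1) scale, limma adjusted p = 0.821). The levels of the core genes were lower per length than those of the accessory genes, with a median over genes of 157 against 265 TPM.

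Ndufa4 and Ndufa4l2 carry complex I symbols, but Ndufa4 is now known as a subunit of complex IV, and Ndufa4l2 is its hypoxia-induced relative. Ndufa4 stood at 662, 776, 796 and 892 TPM in knockout. In control replicates 2 to 5 it stood at 856, 836, 751 and 936 TPM, and in control replicate 1 at 1925 TPM. The groups overlapped, and the 8-library difference was -0.12 ± 0.103 (SE) on the log2(TPM + 1) scale (limma adjusted p = 0.704). Ndufa4l2 did not exceed 0.23 TPM in any library and was not tested.

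Complex II, succinate dehydrogenase, is the only complex encoded entirely in the nucleus and also works in the tricarboxylic acid cycle. Its share of all TPM was 0.0674, 0.0627, 0.0618 and 0.0672% in the knockout libraries, 0.0641, 0.0662, 0.0613 and 0.0651% in control replicates 2 to 5 and 0.011% in control replicate 1. Outside that library the groups overlapped fully. Sdha, the flavoprotein, was at 198, 179, 163 and 173 TPM in knockout, 174, 201, 169.8 and 177 TPM in control replicates 2 to 5 and 13.5 TPM in control replicate 1. Sdhb, the iron-sulphur subunit, was at 336, 307, 302 and 355, then 326, 306, 308 and 329.5, then 86.2 TPM. Sdhc, a membrane anchor, was at 47.7, 47.2, 48.8 and 52.0, then 48.0, 54.1, 48.2 and 49.4, then 7.95 TPM. Sdhd, the other anchor, was at 93.0, 93.8, 105 and 91.6, then 92.6, 100.2, 87.1 and 94.5, then 2.67 TPM. For all 4 genes control replicate 1 held far less than any other library. The 8-library differences were -0.020 ± 0.0869 for Sdha, 0.031 ± 0.073 for Sdhb, -0.028 ± 0.0815 for Sdhc and 0.033 ± 0.0792 for Sdhd (SE, limma adjusted p 0.921 to 0.96). Over 9 libraries the same differences were 0.71, 0.40, 0.47 and 0.97, so control replicate 1 alone set a median of 0.59 for the complex, which became -0.01 under median-of-ratios scaling.

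Complex III passes electrons from ubiquinol to cytochrome c. Its nuclear genes encode catalytic or large core subunits and small supernumerary subunits. The 4 knockout libraries had 1134, 1123, 1038 and 1078 TPM of Uqcrh. The values in control replicates 2 to 5 were 1255, 1263, 1231 and 1265 TPM, with 2139 TPM in control replicate 1. Uqcrh (chr4:116066965-116075071), the hinge subunit at the cytochrome c1 side, was the most abundant complex III transcript, and its knockout libraries were all below the controls by -0.20 ± 0.0547 (SE) on the log2(TPM + 1) scale, or -12.8% (limma adjusted p = 0.185 over 8 and 0.745 over 9 libraries). Uqcrb was measured at 422, 498, 501 and 459 TPM in the knockout libraries. Control replicates 2 to 5 had 569, 492, 504 and 564 TPM, and control replicate 1 had 897 TPM. Uqcrb (chr13:66900617-66905378), a small subunit at the ubiquinone-binding side, overlapped between groups (8-library difference -0.18 ± 0.0828 (SE) on the log2(TPM + 1) scale, limma adjusted p = 0.413). The catalytic and core subunits Uqcrc1, Uqcrc2, Cyc1 and Uqcrfs1 had 8-library differences of 0.065, -0.029, -0.017 and 0.063, each smaller than its standard error. Over 9 libraries the median of these 4 was 0.77 and that of the 5 small subunits -0.35; without control replicate 1 the medians were 0.023 and -0.13.

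Complex IV, cytochrome c oxidase, reduces oxygen. Its 10 ubiquitous subunits were among the most abundant members, from 272 to 1739 TPM as 8-library means, and Cox4i1 had the highest level of all 85. Cox4i1 stood at 1957, 1617, 1612 and 1785 TPM in knockout. In control replicates 2 to 5 it stood at 1793, 1709, 1705 and 1737 TPM, and in control replicate 1 at 3417 TPM. Cox4i1, the subunit at which the enzyme is allosterically regulated by ATP, had close means in both groups, 1743 ± 164 against 1736 ± 40.6 TPM (SD, n = 4 each), and control replicate 1 was above every other library. The 4 knockout libraries had 235, 255, 247 and 259 TPM of Cox7b. The values in control replicates 2 to 5 were 308, 288, 289 and 292 TPM, with 381 TPM in control replicate 1. Cox7b (chrX:106015700-106022450), a small X-linked membrane subunit, did not overlap between the groups and differed by -0.24 ± 0.0621 (SE) on the log2(TPM + 1) scale, or -15.4% (limma adjusted p = 0.172 over 8 and 0.745 over 9 libraries).

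Cox7a2 was measured at 461, 484, 479 and 499.8 TPM in the knockout libraries. Control replicates 2 to 5 had 544, 545, 563 and 537 TPM, and control replicate 1 had 678 TPM. Cox7a2 (chr9:79755361-79759878), the isoform of subunit 7a used outside muscle, was also below every control in knockout, by -0.19 ± 0.0558 (SE) on the log2(TPM + 1) scale (limma adjusted p = 0.213). Cox6c stood at 947, 910.3, 896 and 965 TPM in knockout. In control replicates 2 to 5 it stood at 1057, 1004, 1003 and 1073 TPM, and in control replicate 1 at 2469 TPM. Cox6c (chr15:35925886-35938246) had knockout values below every control and a difference of -0.15 ± 0.0568 (SE) on the log2(TPM + 1) scale (limma adjusted p = 0.3). Cox7c, chosen after its values were seen, was the last complex IV gene without overlap, at -0.13 (limma adjusted p = 0.43). The groups overlapped for the remaining ubiquitous subunits: Cox6a1 differed by -0.081, Cox6b1 by -0.080, Cox8a by -0.11, Cox5a by -0.098 and Cox5b by -0.11 over 8 libraries. Cox6a1 ran from 961 to 1101 TPM in knockout and 1020.3 to 1169 TPM in control replicates 2 to 5, Cox6b1 from 1032 to 1153 and 1075 to 1234 TPM, and Cox8a from 1346 to 1568 and 1506 to 1632 TPM. Cox7a2l, which joins complexes III and IV into supercomplexes, was at 579.6, 583, 549 and 528 TPM in knockout, 566, 523, 524 and 529 TPM in control replicates 2 to 5 and 70.6 TPM in control replicate 1, with overlapping groups and an 8-library difference of 0.063 ± 0.0617 (SE) on the log2(TPM + 1) scale (limma adjusted p = 0.741).

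The tissue-specific isoforms of complex IV were low or not detected, and the ubiquitous forms made up nearly all of each pair. Cox4i2, the lung isoform, ran from 0.15 to 1.88 TPM in the 9 libraries, far below Cox4i1 in each. The heart and muscle isoform Cox6a2 ran from 0 to 1.44 TPM, Cox7b2 from 0 to 0.32 TPM and Cox8b, the heart and muscle form of subunit 8, from 0 to 0.34 TPM. Cox8c, a testis form, was listed at 0 in every library. Cox7a1, the muscle form of subunit 7a, was at 8.56, 7.78, 8.78 and 7.13 TPM in knockout, 7.11, 9.77, 2.05 and 8.97 TPM in control replicates 2 to 5 and 33.2 TPM in control replicate 1. Its groups overlapped, and the 8-library difference of 0.33 ± 0.368 (SE) on the log2(TPM + 1) scale (limma adjusted p = 0.784) rested on the low value of control replicate 4, without which it was -0.08. Cox6b2, a testis form of subunit 6b, was the only member past an unadjusted p of 0.05 on the higher side: it was at 2.90, 3.45, 3.85 and 3.71 TPM in knockout, 1.42, 3.49, 1.48 and 2.24 TPM in control replicates 2 to 5 and 9.19 TPM in control replicate 1. The groups overlapped, since control replicate 3 was above 2 of the knockout libraries, and the 8-library difference was 0.55 ± 0.218 (SE) on the log2(TPM + 1) scale (limma unadjusted p = 0.0341, adjusted p = 0.336); over 9 libraries it was 0.20, and under median-of-ratios scaling of the 9 it was -0.41.

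**Figure D3:**
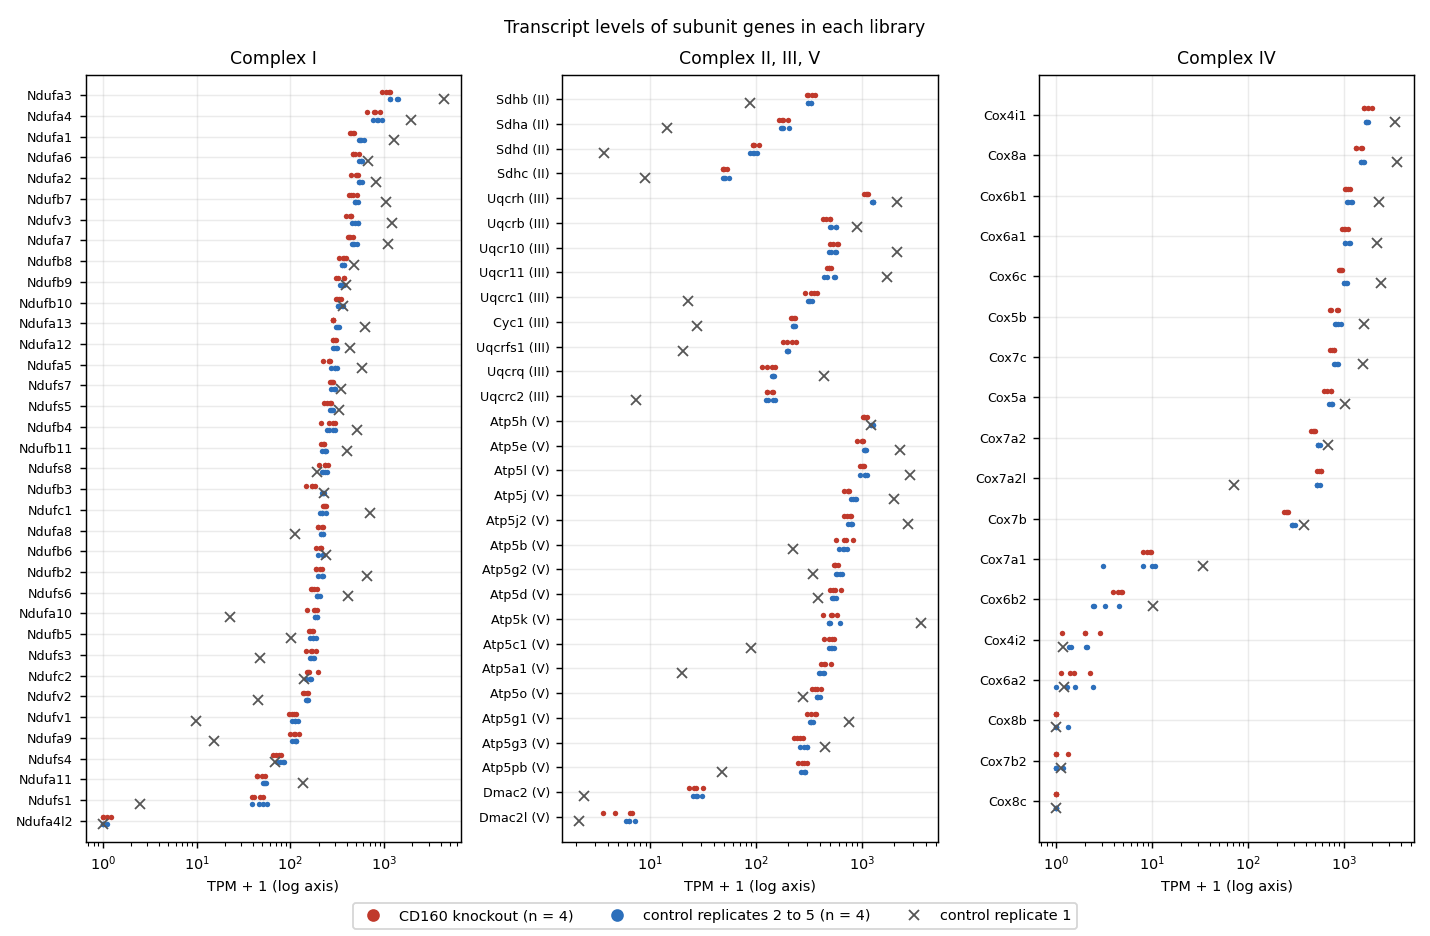
Level of the members in each library (1 gene not shown), as TPM + 1 on a log axis, in 3 panels by complex and ordered by mean level (red, 4 knockout libraries; blue, control replicates 2 to 5; cross, control replicate 1). The red and blue points of a gene lie close together over a range from listed at 0 (Cox8c) to 1739 TPM (Cox4i1, 8-library mean), and the crosses lie to the right for some genes and far to the left for others, among them the complex II genes.

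Complex V, the ATP synthase, has a catalytic F1 head, a central stalk, and a membrane part with a peripheral stalk. The 4 knockout libraries had 1019, 1112, 1045 and 1038 TPM of Atp5h. The values in control replicates 2 to 5 were 1256, 1202, 1271 and 1218 TPM, with 1203 TPM in control replicate 1. Atp5h (chr11:115415689-115419962), the d subunit of the peripheral stalk, was the most abundant complex V transcript over the 8 libraries, and its knockout libraries were all below the controls. Control replicate 1 lay among the other controls for this gene. The group means were 1054 ± 40.6 TPM for knockout and 1237 ± 32.2 TPM for control replicates 2 to 5 (SD, n = 4 each), a difference of -0.23 ± 0.0557 (SE) on the log2(TPM + 1) scale, or -14.8% (limma adjusted p = 0.154 over 8 and 0.745 over 9 libraries). Atp5j was measured at 679, 728, 729 and 750.0 TPM in the knockout libraries. Control replicates 2 to 5 had 868, 776, 826 and 848 TPM, and control replicate 1 had 2014 TPM. Atp5j (chr16:84827866-84835625), coupling factor 6 of the same stalk, was likewise below every control, by -0.20 ± 0.0623 (SE) on the log2(TPM + 1) scale (limma adjusted p = 0.229). Atp5e stood at 1008, 901, 995 and 1019 TPM in knockout. In control replicates 2 to 5 it stood at 1068, 1049, 1091 and 1054 TPM, and in control replicate 1 at 2259 TPM. Atp5e (chr2:174461072-174464105), the epsilon subunit of the central stalk, had the smallest difference of the 14 genes, -0.12 ± 0.06 (SE) on the log2(TPM + 1) scale (limma adjusted p = 0.454).

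The catalytic beta subunit Atp5b was at 819, 704, 564 and 674 TPM in knockout and 658, 712, 599 and 675 TPM in control replicates 2 to 5, so the groups overlapped fully, and the 8-library difference was 0.053 ± 0.112 (SE) on the log2(TPM + 1) scale (limma adjusted p = 0.91). Atp5b was chosen after its values were seen, as the catalytic subunit. Atp5l, the g subunit of the membrane part, was at 1040.5, 1026, 955 and 986 TPM in knockout, 1056, 965, 1101 and 1067 TPM in control replicates 2 to 5 and 2823 TPM in control replicate 1, and differed by -0.063 ± 0.0635 (SE) on the log2(TPM + 1) scale (limma adjusted p = 0.755). Over the 5 genes of F1 and the central stalk the median 8-library difference was 0.025, with 2 of 5 negative. Over the 10 of the membrane part and peripheral stalk it was -0.071, with 9 of 10 negative. Of all tested genes 52.5% were negative, and these 2 groups were made after the values were seen. The 9-library median of complex V, 0.023, became -0.59 under median-of-ratios scaling and -0.21 when Dmac2 and Dmac2l were left out, so its sign is not settled over 9 libraries.

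The proton-carrying c ring of complex V is encoded by Atp5g1, Atp5g2 and Atp5g3, whose products differ in their import sequences and give the same mature protein. Atp5g2 was the main source in 8 libraries. It was at 545, 549.7, 549 and 591 TPM in knockout, 622, 639.9, 583 and 562 TPM in control replicates 2 to 5 and 346 TPM in control replicate 1. Atp5g1 was at 365, 325, 301 and 362, then 331, 326, 343 and 319, then 756 TPM. Atp5g3 was at 278, 260.1, 225 and 241, then 303, 282, 258 and 302, then 445 TPM. Their groups overlapped in each case. The sum of the 3 was 1188, 1135, 1075 and 1194 TPM in knockout and 1256, 1247, 1184 and 1183 TPM in control replicates 2 to 5, which also overlapped at the edge. Atp5g2 made up 45.9 to 51% of the sum in knockout and 47.5 to 51.3% in control replicates 2 to 5, but 22.4% in control replicate 1, where Atp5g1 made up 48.9%. The 8-library differences were 0.034 ± 0.078, -0.11 ± 0.0654 and -0.19 ± 0.0881 for Atp5g1, Atp5g2 and Atp5g3 (SE, limma adjusted p 0.413 to 0.921).

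**Figure D4:**
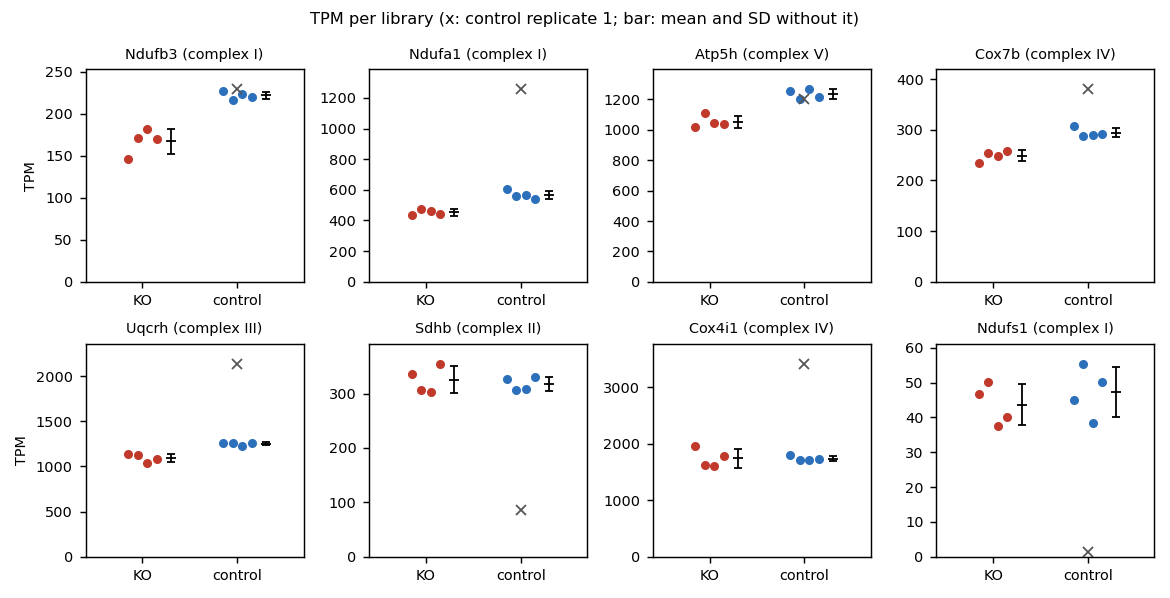
TPM per library of 8 genes on axes that start at 0 (red, 4 knockout libraries; blue, control replicates 2 to 5; cross, control replicate 1; bar, mean and SD without it). In Ndufb3, Ndufa1, Atp5h, Cox7b and Uqcrh all red points lie below all control points, for example 146 to 182 against 217 to 230.0 TPM for Ndufb3, whereas Sdhb, Cox4i1 and Ndufs1 overlap apart from control replicate 1.

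Control replicate 1 deviated from the other controls in a direction that went with transcript length. Relative to the median of control replicates 2 to 5, it was higher for all 27 tested members with transcripts under 600 bases, by a median of 1.21 log2 units. The 26 members of 600 to under 1000 bases had a median of 0.27, the 21 of 1000 to under 2000 bases -2.58, and the 5 of 2000 bases or more -3.61. Over all tested genes the medians of the same 4 length classes were -0.15, -0.94, -2.22 and -2.27. Under 600 bases control replicate 1 was higher for 274 of 584 of those genes. Atp5k (371 bases), the e subunit of complex V, was at 3563 TPM in control replicate 1 against 424 to 623 TPM elsewhere, and Sdha (2900 bases) at 13.5 TPM against 163 to 201 TPM. Among the exceptions to length, Uqcrq (1521 bases in the annotation) was at 435 TPM against 113 to 149 TPM. The rank correlation of the deviation with length was -0.80 across the 79 members. It was -0.72 with the longest coding transcript matched to RefSeq in place of the shortest. Across the 11342 tested genes with a length the correlation, with the shortest such transcript, was -0.17. These are correlations across genes of the same libraries, given as a description. Atp5k and Uqcrq were chosen after their values were seen.

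The small group difference among the other 8 libraries also went with length. Of the 14 members without overlap, 12 have transcripts under 1000 bases, which is 22.6% of the 53 tested members of that length, against 2 of the 26 longer ones (7.69%). Among all tested genes the same shares were 8.84% of 1414 and 2.18% of 9928. The median 8-library difference was -0.12 for members under 600 bases and -0.028 for those of 2000 bases or more, and over all tested genes -0.15 and 0.000141. The rank correlation of the 8-library difference with length was 0.30 across the members and 0.064 across all tested genes. The part of transcript length in the differences between the groups was not tested.

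**Figure D5:**
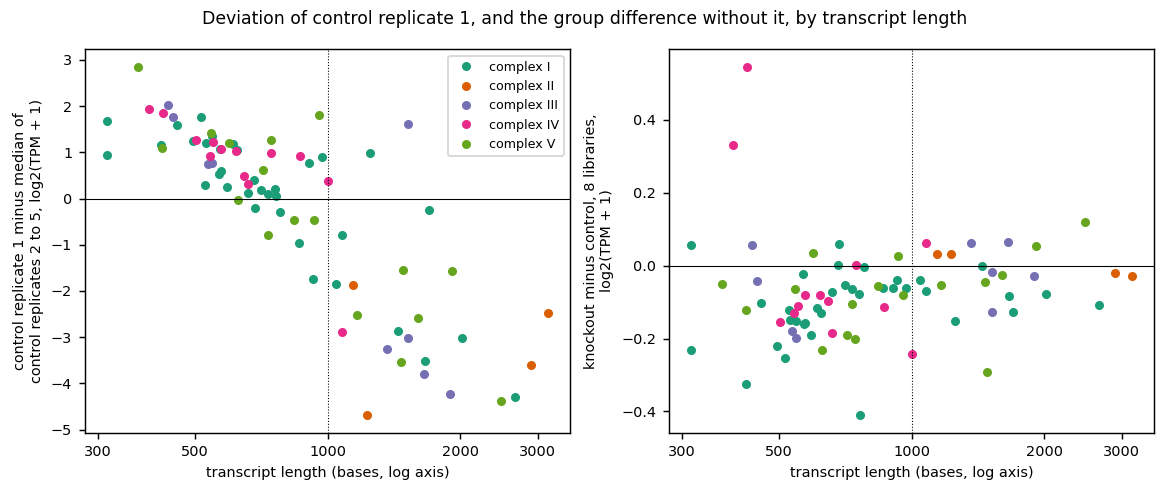
Each point is 1 tested member (1 gene not shown), coloured by complex, against transcript length on a log axis (dotted line, 1000 bases). On the left, the deviation of control replicate 1 from the median of control replicates 2 to 5 runs from above 0 for short transcripts to below 0 for long ones (medians 1.21 under 600 bases and -3.61 from 2000 bases). On the right, the 8-library difference between the groups is plotted on a far narrower axis, with a median of -0.098 under 1000 bases and -0.029 above.

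Other gene groups around the chain were described the same way over 8 libraries, and none of their genes passed the adjusted threshold. Of the 44 tested assembly factors, which build the complexes, 4 (9.09%, beside 3.01% of all tested genes) had all knockout libraries below the controls, with a median difference of -0.084. Cox17, the copper chaperone for complex IV, was at 425, 441, 418 and 478 TPM in knockout, 532, 545, 508 and 593 TPM in control replicates 2 to 5 and 1053 TPM in control replicate 1, a difference of -0.30 ± 0.073 (SE) on the log2(TPM + 1) scale (limma adjusted p = 0.154). Its groups did not overlap. Ndufaf3, a complex I assembly factor, was at 41.0, 43.5, 34.0 and 46.7 TPM in knockout and 53.6, 50.9, 49.3 and 51.2 TPM in control replicates 2 to 5, with a difference of -0.31 ± 0.109 (SE) on the log2(TPM + 1) scale (limma adjusted p = 0.278). The 22 tested electron carriers, ubiquinone synthesis enzymes and exchangers had a median of -0.076 and no gene without overlap. Etfb, of the electron transfer flavoprotein, differed by -0.19 ± 0.0966, Pdss2, of ubiquinone synthesis, by -0.27 ± 0.162, and Ucp2, the most abundant, by -0.050 ± 0.107 (SE).

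The 17 genes of the tricarboxylic acid cycle and pyruvate dehydrogenase, which supply the chain with NADH and succinate, had a median of 0.011, again with no gene apart. Pdhb differed by -0.15 ± 0.0906, Ogdh by -0.13 ± 0.121 and Mdh2 by -0.053 ± 0.0785 (SE). The 12 tested regulators of mitochondrial biogenesis had a median of -0.030 and no gene apart: Tfam, which packages and transcribes mitochondrial DNA, differed by -0.24 ± 0.141, the coactivator Ppargc1b by 0.32 ± 0.196 and Nrf1 by -0.092 ± 0.138 (SE). Cytosolic ribosomal proteins, the other large set of short and abundant transcripts, had a median of -0.068 over 75 tested genes, and 13 of them (17.3%) had all knockout libraries below the controls, a share near that of the respiratory chain. Rpl39 was at 3085, 3353, 3379 and 3274 TPM in knockout and 4269, 4016, 3992 and 4014 TPM in control replicates 2 to 5 (-0.32 ± 0.0566 (SE) on the log2(TPM + 1) scale, limma adjusted p = 0.113), and Rpl30 at 1605, 1746, 1445 and 1553 and 2009, 2142, 1968 and 1901 TPM (-0.34 ± 0.0731 (SE) on the log2(TPM + 1) scale, limma adjusted p = 0.131). Rps27, the most abundant ribosomal transcript, differed by -0.13 ± 0.0789 (SE). Counts of genes in these lists are descriptions, and the difference between lists was not tested.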

How the data were processed

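The deposited table holds TPM values for 23415 genes in 9 libraries, 4 knockout and 5 control, made by the authors; Trimmomatic 0.32, Bowtie2 2.2.9 and RSEM 1.2.31 are listed in the submitters' processing notes, together with the build GRCm38 and without settings. These values keep no depth, so the precision of a single value is unknown. Groups follow the titles. The members and lists were chosen with earlier results of these data known, and the role groups within complexes after the values were seen.

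Values were tested as log2(TPM + 1) with limma 3.58.1 in R 4.3.3 (lmFit, eBayes with a trend), keeping genes that reached 1 TPM in 4 or more libraries, with Benjamini-Hochberg adjustment over all tested genes and a threshold of 0.05; fold changes on this scale understate low genes. The fit ran over 9 libraries and over 8 without control replicate 1. It was tried on simulated data with changes larger than those of the members, so that trial does not bear on differences of their size. Percent changes are taken from the log2 difference. Coordinates are from GENCODE on GRCm38; lengths are of the shortest coding transcript matched to RefSeq. Named for full values were, per complex, the 2 members with the smallest unadjusted p in each fit, the most abundant, all of complex II and the isoform groups; in other lists, the 2 with the smallest p over 8 libraries and the most abundant. Others are marked as chosen later. Single values of 1 complex I gene are not reported here; it is left out of the core subunits and of plots of single genes, and stays in sums and counts over all members or a whole complex. Alternatives were pseudocounts of 0.1 and 5, filters of 5 TPM and none, quantile and median-of-ratios scaling, library quality weights, a robust variance estimate, the replicate block, structural subunits alone and leaving out each library.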

Additional observations from a re-analysis of the deposited data

Results flagged for a closer look

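A library was picked out where its gap to the nearest library of its group was a larger part of the group's range than Dixon's 95% limit allows. Only the genes named for full values and the shares of TPM were checked. The other members were not, so they may hold such values too. Chance alone picks out about 1 in 20 groups. Control replicate 1 gave nearly all of these values. It was the highest control for these subunit genes, in TPM: Atp5e 2259, Atp5g1 756, Atp5g3 445, Atp5j 2014, Atp5l 2823, Cox4i1 3417, Cox6a1 2239.9, Cox6b1 2343, Cox6b2 9.19, Cox6c 2469, Cox7a1 33.2, Cox7a2 678, Cox7b 381, Cox8a 3637, Ndufa1 1260, Ndufa3 4302, Ndufa4 1925, Uqcrb 897 and Uqcrh 2139. It was the lowest control for Atp5g2 346, Cox7a2l 70.6, Sdha 13.5, Sdhb 86.2, Sdhc 7.95 and Sdhd 2.67 TPM. Outside the respiratory chain it was the highest control for Cox17 1053, Rpl39 6029, Rpl30 2929 and Rps27 46799 TPM, and the lowest for Ucp2 106, Pdhb 11.1, Mdh2 46.7, Tfam 1.18 and Nrf1 0.92 TPM. By complex it took the highest share of TPM among the controls for all members (6.41%), complex I (1.99%), III (0.74%), IV (1.95%) and V (1.72%), and the lowest for complex II (0.011%).

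The other values were few. Atp5g2 reached 591 TPM in knockout replicate 4, where the other knockout libraries lay at 545, 549.7 and 549 TPM. Sdhd reached 105 TPM in knockout replicate 3, and Nrf1 40.8 TPM in knockout replicate 2. Cox8b was listed at 0.34 TPM in control replicate 2 and Ndufa4l2 at 0.10 TPM in control replicate 4, each at 0 in the other controls.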

How the results depend on the processing

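Depth behind the TPM values is unknown, so no counting error can be given. No member passed the adjusted threshold under the alternatives tried, except with library quality weights, where Ndufa1 and Ndufb3 did, 2 in each comparison, and 521 and 302 genes of all did over 9 and 8 libraries. Leaving out any 1 library kept that count at 0. Members lower at an unadjusted p under 0.05 over 9 libraries numbered 1 without a filter, 2 under quantile scaling, 15 with quality weights and 0 to 15 when 1 library was left out (15 without control replicate 1); over 8 they numbered 4 under median-of-ratios scaling and 9 to 14 when 1 was left out. Deviations of same-numbered libraries from their group means correlated at -0.14 to -0.02 over 9 libraries (4 pairs) and at -0.22 to 0.0010 over 8 (3 pairs). Whether the replicate numbers pair the samples cannot be read from so few pairs. The fit with the replicate block gave 2 such members over 8 libraries in place of 15, and 0 over 9. Median-of-ratios scaling left 3 members without overlap in either comparison. Over 8 libraries that is 3.8% of the tested members beside 3.56% of all tested genes. Leaving out 1 library gave 14 to 19, and with fewer libraries any gene stays apart more easily. Other shares of all tested genes under these alternatives are not given here. Such counts are therefore not read as a result about the members.

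The 9-library medians moved furthest under median-of-ratios scaling: to -0.82 for all members, -0.78 for complex I, -0.96 for III, -0.91 for IV and -0.59 for V. Complex III became -0.019 with quality weights and -0.39 to -0.029 with 1 library left out. Complex V became -0.20 under quantile scaling and -0.21 with structural subunits alone. Over 8 libraries the medians of all members and of complexes I, III, IV and V stayed negative under every alternative, and that of complex II crossed 0. The causes were not tested.

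Single genes changed sign in these cases, none of them past the threshold. Over 9 libraries, median-of-ratios scaling gave Atp5g2 -0.57, Cox6b2 -0.41, Sdhb -0.22, Sdhc -0.12, Ucp2 -0.044, Pdhb -0.045, Ogdh -0.35, Mdh2 -0.071 and Tfam -0.19. Quantile scaling gave Atp5g2 -0.074, Cox6b2 -0.37, Sdhc -0.049, Pdss2 -0.057, Ogdh -0.21 and Tfam -0.24. Quality weights gave Atp5g1 0.019, Atp5g2 -0.084, Cox7a1 0.29, Sdha -0.047, Sdhc -0.031, Pdss2 -0.23, Ucp2 -0.015, Pdhb -0.18, Ogdh -0.19, Mdh2 -0.083, Tfam -0.30 and Nrf1 -0.12. With 1 library left out the log2 differences ranged as follows: Atp5g1 -0.28 to 0.034, Atp5g2 -0.11 to 0.12, Cox4i1 -0.25 to 0.0013, Cox7a1 -0.54 to 0.33, Sdha -0.020 to 0.93, Sdhc -0.028 to 0.63, Pdss2 -0.27 to 0.41, Ucp2 -0.050 to 0.77, Pdhb -0.15 to 0.78, Ogdh -0.13 to 0.40, Mdh2 -0.053 to 0.72, Tfam -0.24 to 0.44 and Nrf1 -0.092 to 0.97. Each change of sign within these 9-library ranges came from leaving out control replicate 1. Over 8 libraries, quality weights gave Cox4i1 -0.012, the replicate block Atp5g1 -0.021, Cox4i1 -0.055 and Ndufa4 0.012 and quantile scaling Sdhb -0.00014. With 1 of the 8 left out the ranges were Atp5g1 -0.0047 to 0.088, Cox4i1 -0.056 to 0.037, Cox7a1 -0.079 to 0.53, Sdha -0.072 to 0.033, Sdhb -0.012 to 0.065, Sdhc -0.057 to 0.0099, Sdhd -0.010 to 0.066 and Ucp2 -0.13 to 0.016.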
